A study of Mus musculus with 4 samples.

Results

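White blood cells made up 249 of the 20850 cells in single-cell libraries of sorted mouse satellite cells, the stem cells of skeletal muscle. They were picked from all 4 libraries among the barcodes with 1000 to 5000 genes and at most 8% of unique molecular identifiers (UMIs, each tagging 1 captured RNA molecule) from mitochondrial genes. A white blood cell had at least 1 UMI in 3 or more of the 6 leukocyte genes Ptprc, Tyrobp, Fcer1g, Laptm5, Coro1a and Cd52. It had at most 1 UMI of Pax7, the transcription factor that marks satellite cells, and none of Cdh5 or Sox10, which mark endothelial and glial cells. The levels of these 9 genes were therefore fixed in part by the choice of cells and are given as a description.

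The study compared satellite cells of dystrophic and wildtype mice on 2 genetic backgrounds. The libraries came from B10 (C57/Bl10ScsSn, 15 weeks old), mdx (C57BL/10ScSn-Dmdmdx, 11 weeks), DBA (DBA/2, 13 weeks) and D2-mdx (D2.B10-Dmdmdx, 14 weeks) mice. The mdx and D2-mdx mice carry the same Dmd mutation, which removes full-length dystrophin. Hindlimb muscle of 2 mice per strain, male by the study's methods, was pooled into 1 library, so that no value has a replicate and none was tested. Red blood cells were lysed, and cells were sorted as positive for the integrin ITGA7 and for VCAM1 and negative for a lineage mix against Cd11b, Sca1, Cd45 and Cd31. The mix was meant to remove leukocytes, so the cells described here passed a gate against them and are not a sample of the leukocytes of the muscle. Strain, background, age and library cannot be told apart in any comparison below.

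White blood cells enter muscle in large numbers after injury. Neutrophils come first and carry antimicrobial proteins in granules made in a fixed order during their growth in bone marrow, the primary (azurophilic) granules before the secondary ones. Monocytes follow and mature into macrophages, which take up debris, present peptides on major histocompatibility complex (MHC) class II and secrete factors that act on satellite cells and fibroblasts. In dystrophic muscle fibres are damaged repeatedly, and macrophages are the most abundant leukocytes there. T cells recognise peptides on MHC molecules, and B cells make antibodies and also carry class II.

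B10 was sequenced to 49191944 UMIs, mdx to 67156373, DBA to 43542853 and D2-mdx to 75482888. The single white blood cell of B10 had 3441 UMIs, and the median white blood cell of DBA had 13170, that of mdx 7405 and that of D2-mdx 9541. Over all cells the median was 8509 in B10, 10459 in DBA, 7189 in mdx and 6783 in D2-mdx. Levels are given below as counts per 1000000 UMIs (CPM), summed over the cells named. Because 1 UMI is 1 transcript end in this 3′ assay, levels of different genes are compared without regard to length. A count of 0 over all white blood cells of a library allows a level of up to 3.78 CPM in mdx and 1.80 CPM in D2-mdx, from 3 counts, but of up to 19.8 CPM in DBA and 872 CPM in B10. Intervals are exact 95% intervals and cover counting error only. Between 5 and 16 barcodes were shared by any pair of libraries, but 0 of them were white blood cells in both.

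White blood cells were rare in the wildtype libraries. They were 1 of 4762 cells in B10 (0.0210%, exact binomial interval 0.000532 to 0.117) and 9 of 3370 in DBA (0.267%, 0.122 to 0.506). In the dystrophic libraries they were 91 of 6669 cells in mdx (1.36%, 1.10 to 1.67) and 148 of 6049 in D2-mdx (2.45%, 2.07 to 2.87). The counting intervals of the 4 libraries did not overlap, but they hold no spread between mice, since each strain had 1 library. At the threshold, 6 of the 91 white blood cells of mdx, 4 of the 9 of DBA and 15 of the 148 of D2-mdx had exactly 3 of the 6 genes, with medians of 8.5, 8 and 7 UMIs over the 6. Just outside it, with 2 genes, lay 1, 9, 1 and 28 cells of B10, mdx, DBA and D2-mdx, with medians of 8, 2, 4 and 2 UMIs.

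**Figure D1:**
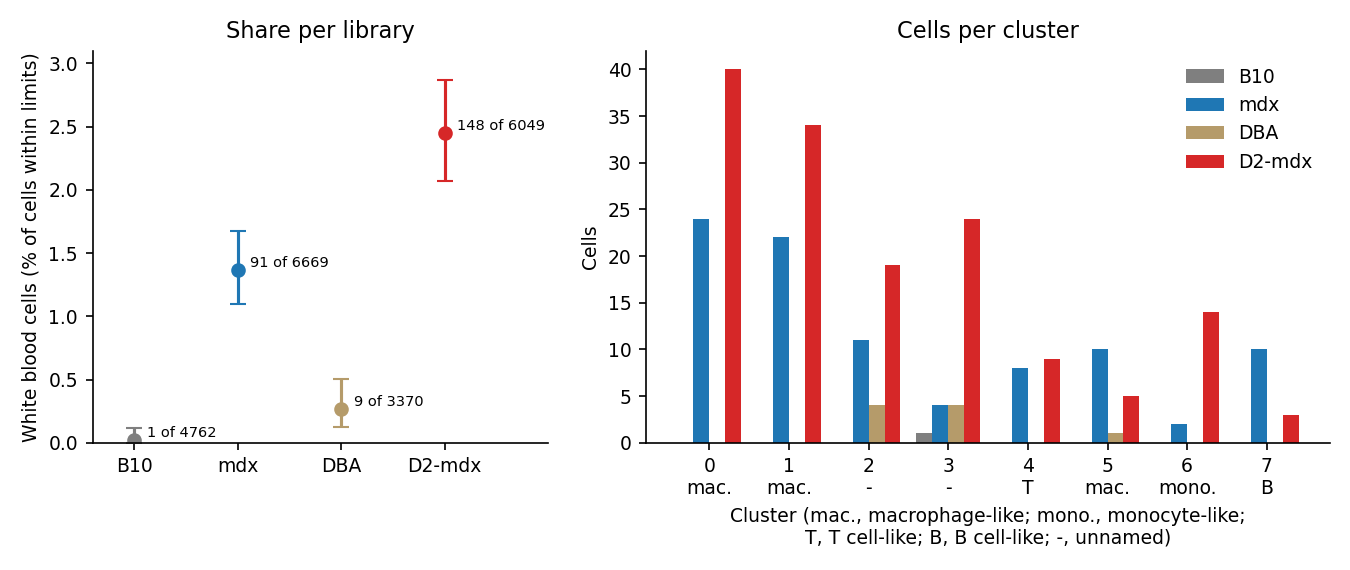
Left, white blood cells as a percentage of all cells within the limits on genes and mitochondrial UMIs in each library, with exact 95% binomial intervals. Right, the number of white blood cells of each library in the 8 clusters; the 1 cell of B10 and the 9 cells of DBA lay mostly in the unnamed clusters 2 and 3.

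Of the marker genes of the label, Ptprc, which encodes CD45, had 569 CPM in mdx and 335 CPM in D2-mdx, and Tyrobp, an adaptor of activating receptors on myeloid and NK cells, had 1798 and 1653 CPM. Fcer1g, the common gamma chain of Fc receptors, had 2071 and 1742 CPM. These 3 genes were part of the choice and do not check it. Cd74, the invariant chain that guides class II molecules, was not, and had 2906 CPM in B10 (10 UMIs in its 1 cell) and 985 CPM in DBA, with 6357 CPM in mdx and 2088 CPM in D2-mdx. It thus had UMIs in every library, at a higher level in mdx than in D2-mdx. The label did not hold for every cell: the B10 cell also had 44 pericyte UMIs, and 1 cell of D2-mdx had 0 Ptprc, macrophage, neutrophil, T and B UMIs with 40 pericyte and 95 smooth muscle UMIs.

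The antigens of the sort were measured as RNA. Itgam, which encodes Cd11b, had 257 CPM in white blood cells of mdx and 185 CPM in those of D2-mdx. In myogenic cells of the same libraries (2 or more Pax7 UMIs and none of Ptprc, Tyrobp and Fcer1g, 3646 and 2941 cells) it had 0.0940 and 0.170 CPM. The RNA of Itgam was therefore present in cells that had passed a negative gate against its protein. Ptprc RNA was present as well, but it was part of the choice of both groups of cells and does not show this. The antigens of the positive gate lay the other way. Vcam1 had 66.7 CPM in white blood cells of mdx against 617 CPM in myogenic cells, and 75.7 against 601 CPM in D2-mdx. Itga7 had 13.8 against 83.0 CPM in mdx and 23.4 against 72.8 CPM in D2-mdx.

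The same held for shares of cells at equal depth. With each cell thinned to 2000 UMIs, Itgam had a UMI in 31.9% of white blood cells of mdx and 25.7% of those of D2-mdx, against 0.0274% and 0.0680% of myogenic cells. Vcam1 had one in 6.59% and 9.46%, against 64.5% and 66.0%. Within the white blood cells, Vcam1 was uneven. It had 13.1 CPM in cluster 0 and 20.1 CPM in cluster 1, the largest clusters, and 228 CPM in cluster 2 and 344 CPM in cluster 3, which also hold UMIs of non-leukocyte genes (described with those clusters). Ly6a, which encodes Sca1, and Pecam1, which encodes Cd31, were far higher in endothelial cells than in white blood cells, with Ly6a at 2677 against 122 CPM in mdx and at 1726 against 24.0 CPM in D2-mdx.

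**Figure D2:**
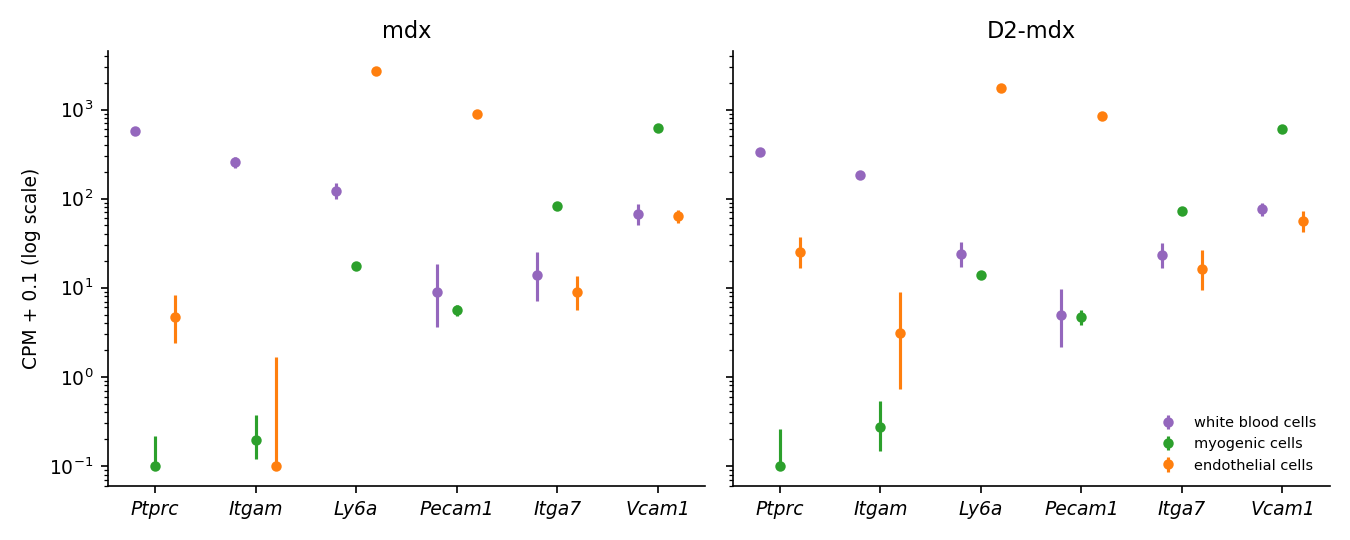
Levels of the 6 sort antigens in white blood cells, myogenic cells and endothelial cells of the mdx and D2-mdx libraries, as CPM + 0.1 on a log scale with exact Poisson intervals. Ptprc and Itgam of the negative gate were high in white blood cells and near 0 in myogenic cells, whereas Vcam1 and Itga7 of the positive gate were higher in myogenic cells; Ptprc was used to choose the first 2 groups.

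Clustering the 249 cells alone gave 8 clusters. Genes that define a cluster describe it and are not results. Cluster 0 (24 cells of mdx and 40 of D2-mdx), cluster 1 (22 and 34) and cluster 5 (10 of mdx, 1 of DBA and 5 of D2-mdx) were macrophage-like, since macrophage markers scored highest there of all leukocyte lists and all 11 had a UMI in at least 10% of the cells. In cluster 5, however, myofibre genes scored higher, at 1.48 against 1.16 for macrophage genes, and myogenic genes scored 1.10. The name of cluster 5 is therefore less sure. Cluster 6 (2 of mdx and 14 of D2-mdx) was monocyte-like, cluster 4 (8 and 9) T cell-like and cluster 7 (10 and 3) B cell-like. Clusters 2 (11 of mdx, 4 of DBA and 19 of D2-mdx) and 3 (1 of B10, 4 of mdx, 4 of DBA and 24 of D2-mdx) stayed unnamed. All 11 macrophage markers reached 10% of their cells too, but myogenic genes led cluster 2, and neutrophil and pericyte genes led cluster 3. The sizes are not compared between libraries, because leading genes such as Spp1, Isg15 and Gpnmb differed in level between mdx and D2-mdx.

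Cluster 0 was led by Gpnmb, a glycoprotein of macrophages with many lysosomes, Gpr34 and Ms4a7. Gpnmb led through the mdx cells, at 2261 CPM. In the D2-mdx cells it had 75.1 CPM, against 79.4 CPM in the white blood cells of the other clusters. The 8 class II genes of cluster 0 summed to 13518 CPM, of which Cd74 made up 6655 CPM, and its 10 lysosomal genes to 23979 CPM, led by the protease gene Ctsb at 6924 CPM. Cluster 1 was led by Spp1, which encodes the secreted phosphoprotein osteopontin, and by Ms4a4c, Irf7 and Isg15, which belong to the interferon response or are induced with it. Spp1 had 508 CPM in mdx and 22559 CPM in D2-mdx there, but Ms4a4c had 508 and 51.9 CPM. The pooled profile of cluster 1 thus mixes libraries that differ. The class II sum of cluster 1 was 3005 CPM, and its 10 interferon-response genes summed to 796 CPM against 177 CPM in cluster 0. Lyz2, the lysozyme of myeloid cells, was high in both, at 17959 CPM in cluster 0 and 15424 CPM in cluster 1.

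Cluster 5 had the genes of macrophages that live in tissue, though its cells fell into other clusters with 30 dimensions or 2000 features. It was led by the lectin receptor genes Cd209f, Cd209g and Cd209d, with the chemokine Ccl8 at 3054 CPM, Retnla at 7002 CPM and Lyve1, a hyaluronan receptor, at 723 CPM. Its 8 measured resident macrophage genes summed to 10413 CPM against 1506 CPM in cluster 0. The scavenger receptor Cd163 had 477 CPM there and at most 28.9 CPM in any other cluster, and the mannose receptor Mrc1 had 1952 CPM. The 8 complement genes, among them the C1q chains that bind immune complexes, summed to 14927 CPM against 6588 CPM in cluster 0. Spp1 had 29.8 CPM in cluster 5, where it had 17541 CPM in cluster 1. Myofibre genes also summed to 410 CPM and myogenic genes to 953 CPM in these 16 cells, of which 5 held 10 or more myogenic UMIs. The part of those UMIs in the profile was not tested.

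The monocyte-like cluster 6, which was also not found with these settings or at resolution 0.3, had the highest chemokine sum, 18593 CPM over 16 genes, of which Cxcl2, a neutrophil attractant, made up 7152 CPM with a UMI in all 16 cells. Cytokine genes summed to 1244 CPM, with Il1b, the precursor of interleukin 1 beta, at 681 CPM. The fibronectin gene Fn1 had 4101 CPM, with a UMI in 14 of the 16 cells. Ccr2, the receptor that draws monocytes from blood, had 444 CPM, but 539 CPM in cluster 0, so that it did not set cluster 6 apart.

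Clusters 4 and 7 were the lymphocyte-like clusters, though 9 cells of cluster 2 and 2 of cluster 3 also held 10 or more B cell UMIs. In cluster 4 the T cell receptor complex gene Cd3d had 520 CPM with a UMI in 12 of 17 cells, and Cd8b1 of cytotoxic T cells led the cluster at 343 CPM. NK genes summed to 1082 CPM there, with the granule gene Nkg7 at 416 CPM. In 1 cell of mdx with 47 NK UMIs and 1 of D2-mdx with 29, the T genes had 2 UMIs each and the NK receptor Ncr1 had 4 and 15 UMIs. The other 15 cells had 0 Ncr1 UMIs and 5 to 29 T UMIs, so the cluster held T cells with at least 2 NK-like cells. At resolution 0.3, cluster 7 was not found. In cluster 7, Cd79a, the signalling chain of the B cell receptor, had 2846 CPM and Ms4a1, which encodes CD20, 923 CPM, both with a UMI in all 13 cells. The class II sum of these B cell-like cells, 22111 CPM, was above that of every other cluster. C1qb and Gpnmb were at 0 there.

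**Figure D3:**
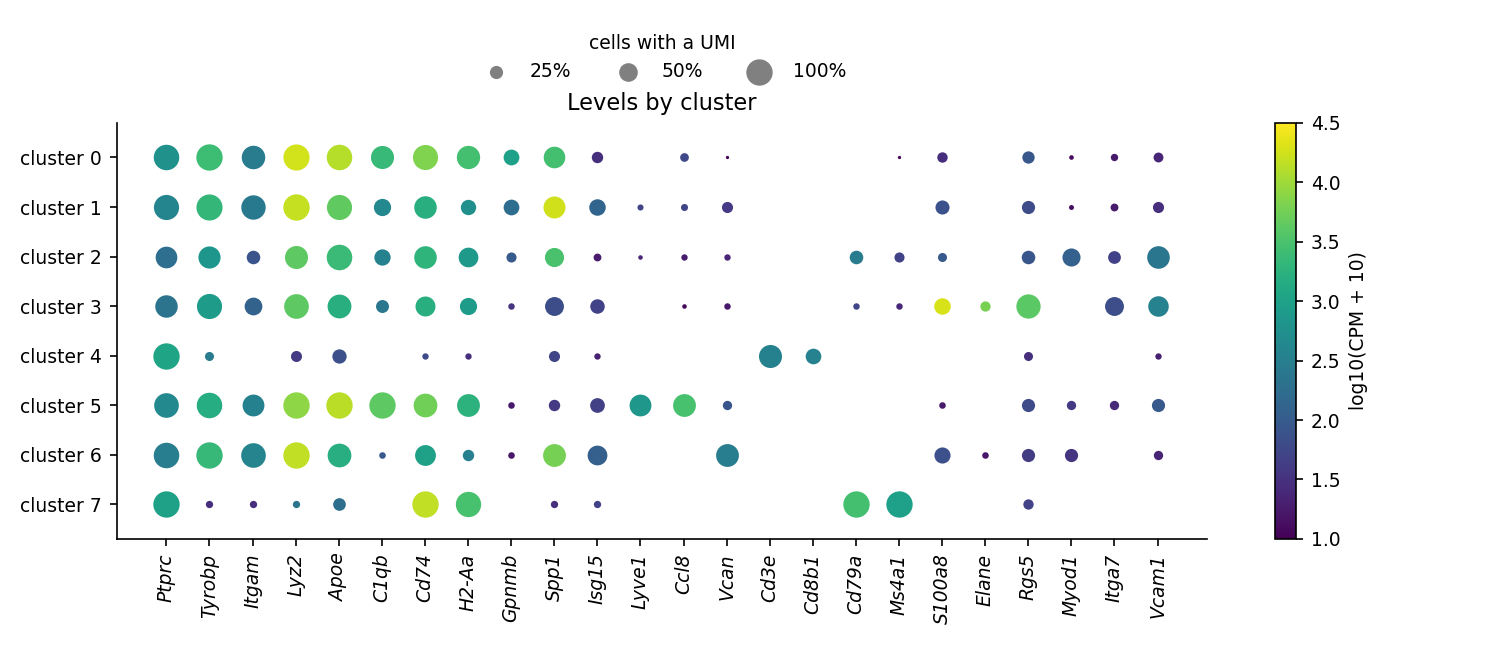
Levels of marker and other named genes in the 8 clusters. Colour gives log10(CPM + 10) over the cells of the cluster, and dot size the percentage of its cells with a UMI. Cd74 and H2-Aa were high in clusters 0, 5 and 7, S100a8 in cluster 3, and Cd79a in cluster 7.

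Neutrophil granule RNA came from few cells, and from only 2 libraries at high counts. S100a8 (chromosome 3, 90668978 to 90670035, plus strand, mm10) and S100a9 together form calprotectin, a calcium-binding protein of neutrophils and monocytes. They had 11.3 CPM (9 UMIs in 4 cells) and 0 CPM in mdx. In D2-mdx they had 3925 and 5326 CPM, and in DBA 16613 and 22239 CPM from 2 of its 9 cells. Without the cells that held 1 Pax7 UMI, the levels of D2-mdx were 2388 and 3532 CPM. The single cell of B10 had none. A cell with a UMI in 3 or more of S100a8, S100a9, Camp and Ngp was found 0 times in 91 white blood cells of mdx, which allows a share of up to 3.97%, and in 7 of 148 of D2-mdx (4.73%, 1.92 to 9.50). In DBA it was 2 of 9. All 9 such cells lay in cluster 3 and 0 were predicted doublets (barcodes with 2 cells).

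These cells differed in the granule genes they held. Camp and Ngp encode proteins of the secondary granules, and Elane and Mpo encode neutrophil elastase and myeloperoxidase, which belong to the primary granules and are transcribed in promyelocytes, before Retnlg and other late genes. In 5 cells Elane (chromosome 10, 79886247 to 79888215, plus strand) and Mpo were high. The 2 cells of DBA had 779 and 504 Elane UMIs with 256 and 251 Mpo UMIs, and 677 and 1836 S100a8 UMIs. The 3 of D2-mdx had 517, 645 and 306 Elane UMIs with 171, 285 and 170 Mpo UMIs, and 45, 958 and 1480 S100a8 UMIs. All 5 were deep, between 22227 and 32484 UMIs, and had 0 Retnlg UMIs. They also had 14 to 31 NK-list UMIs, all of Nkg7, the only NK-list gene with a UMI in cluster 3. They had 1 or fewer UMIs of the 6 pericyte genes, but the D2-mdx cell with 306 Elane UMIs had 17 myogenic, 11 fibroblast and 1 Pax7 UMIs.

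The other 4 cells, all of D2-mdx, had 0 Elane UMIs. A cell with 4763 UMIs and 1227 genes had 745 S100a8, 1033 S100a9 and 247 Retnlg UMIs and 0 pericyte UMIs. Cells with 149 and 65 Retnlg UMIs had 526 and 615 S100a8 UMIs, but also 79 and 81 pericyte UMIs. The last cell had 841 Camp and 548 Ngp UMIs with 1780 of S100a8, 54 UMIs of proliferation genes and 93 pericyte UMIs. Thus 3 of these 4 cells carried the genes of a second cell type in the same barcode. In D2-mdx, 2 more cells had 10 or more S100a8 UMIs without Camp or Ngp. A predicted doublet of cluster 3 had 288 with 77 pericyte UMIs, and a cell of cluster 2 had 27 with 23 myogenic UMIs.

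Cluster 3 as a whole was split in this way. Of its 33 cells, 27 held 10 or more UMIs of pericyte genes, 10 held 10 or more of neutrophil genes, 4 held both and 0 neither. Pericytes wrap capillaries and are no leukocytes. The pericyte genes summed to 5269 CPM and the smooth muscle genes to 5424 CPM in cluster 3, against 90.5 and 78.9 CPM in cluster 0. In the same 33 cells, 24 also held 10 or more UMIs of macrophage genes, and 9 of the 13 predicted doublets among white blood cells were in this cluster. The part of doublets in the other 24 cells was not tested.

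**Figure D4:**
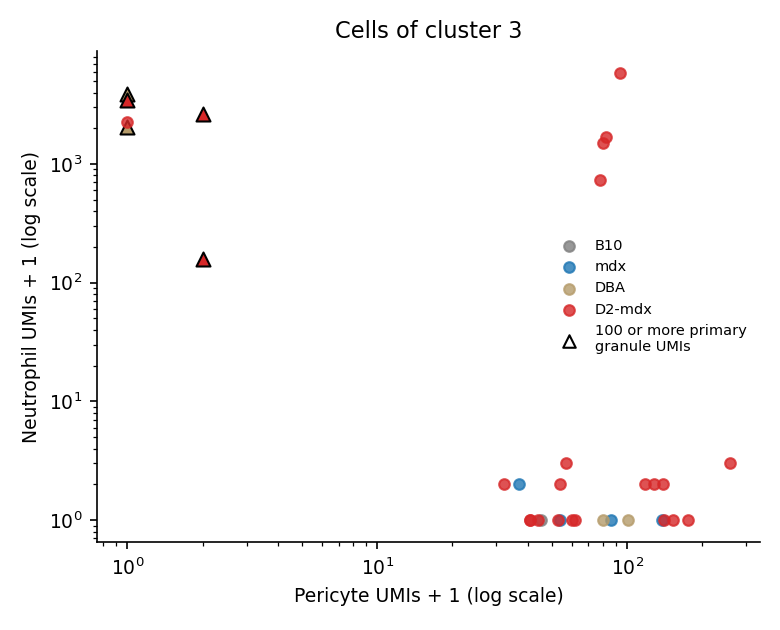
UMIs of 13 neutrophil genes against UMIs of 6 pericyte genes in each of the 33 cells of cluster 3, both plus 1 on log axes, coloured by library. Triangles mark cells with 100 or more primary granule UMIs; these 5 cells lie at the low end of the pericyte axis, and most other cells lie at the high end with few neutrophil UMIs.

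Cluster 2 joined leukocyte and myogenic RNA. It was led by Peg12, Ankrd1 and Nppc, and 25 of its 34 cells held 10 or more UMIs of myogenic genes, where the median cell of cluster 0 held 1. In the same cells, 22 had 10 or more macrophage UMIs and 9 had 10 or more B cell UMIs. It held 4 predicted doublets. The proliferation genes summed to 1154 CPM there, led by Top2a at 375 CPM, against 93.5 CPM in cluster 0. Few cells carried this sum. In cluster 2, 8 of the 34 cells held 10 or more such UMIs, with 183 in 1 cell of DBA and 57 in another. The median cell held 1 in both clusters. Counting clusters 0, 1 and 4 to 7 alone, the share of white blood cells was 0 in B10, 0.0297% in DBA (1 cell), 1.14% in mdx (76 cells) and 1.74% in D2-mdx (105 cells). The order of the dystrophic libraries stayed, while the wildtype libraries kept 1 cell.

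That cell, of DBA, was in cluster 5 and had 380 macrophage UMIs. The other 8 of DBA were 4 in cluster 2, each with 15 to 33 B cell UMIs, and 4 in cluster 3, among them the 2 cells high in Elane. The single white blood cell of B10 was in cluster 3 with 44 pericyte and 18 macrophage UMIs. No ratio against DBA or B10 was formed with so few cells.

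Mast cells, basophils and eosinophils were near absent. The 8 mast cell and basophil genes summed to 8.04 CPM over all 249 cells with 4 of the 8 at 0, and the 6 eosinophil genes to 2.68 CPM with 3 at 0. The 13 dendritic cell genes summed to 413 CPM, led by Ifitm1 at 110 CPM, and no cluster was led by them. Single cells stood out, however. In cluster 0, 4 cells of mdx had 4 to 19 macrophage UMIs and 0 C1qb UMIs, with 524, 99, 389 and 104 Cd74 UMIs. Of these, 2 had 24 and 11 UMIs of Cd209a, a receptor of monocyte-derived dendritic cells, and 1 had 3 Xcr1 and 2 Clec9a UMIs, which mark cross-presenting dendritic cells. The like cell of D2-mdx had 0 macrophage and 14 Ccr7 UMIs with 68 of Cd74. Clec10a, a lectin shared by dendritic cells and macrophages, reached 901 CPM in cluster 5. The hemoglobin and other erythroid genes summed to 47.5 CPM after red cell lysis. Class II genes and C1qb marked many cells, B cell-like ones among them: 69 of 91 in mdx (75.8%) and 71 of 148 in D2-mdx (48.0%, 39.7 to 56.3) had UMIs in 2 or more of Cd74, H2-Aa and C1qb and in fewer than 3 of the 4 neutrophil genes. Cluster 7 held 9 of these cells in mdx and 3 in D2-mdx, and the macrophage-like clusters 0, 1 and 5 held 23, 14 and 9 in mdx and 32, 11 and 4 in D2-mdx.

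The macrophage-like clusters 0 and 1 held at least 20 cells in both dystrophic libraries and were compared gene by gene, as the log2 ratio of D2-mdx over mdx. Cluster 0 had 1581 genes with at least 100 CPM in one library and 30 UMIs over both, of which 55 were 2-fold or more higher in D2-mdx (3.48%) and 76 lower (4.81%). With a minimum of 50 CPM they were 148 and 141, so the excess of lower genes turned. Class II genes were lower in D2-mdx, in part through few cells. Of the 8 on the list 6 could be compared, and 5 of these 6 were 2-fold or more lower, with a median of -1.23 where the median of all compared genes was -0.0048. Cd74 had 10143 CPM in mdx and 4357 CPM in D2-mdx (log2 ratio -1.22, -1.31 to -1.13). H2-Aa and H2-Ab1, the chains of I-A, had 4224 against 1917 CPM (-1.14) and 2474 against 1044 CPM (-1.24). D2-mdx is on the DBA/2 background, but its reads were counted on the C57BL/6 genome. The part of the alignment in the class II ratios of either cluster was not tested.

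H2-Eb1, the beta chain of I-E, had 2974 CPM in mdx and 1018 CPM in D2-mdx (-1.55). H2-DMb1, part of the editor that loads peptides, had 397 and 116 CPM (-1.77), while its partner H2-DMa had a ratio of 0.18. Per cell, Cd74 ran from 0 UMIs upward with a median of 74 in mdx and 20 in D2-mdx, so the libraries overlapped. H2-Aa had a UMI in 22 of 24 cells of mdx and 28 of 40 of D2-mdx, with medians of 32 and 2 UMIs. With each cell thinned to 2000 UMIs the ratio of Cd74 was -0.90, that of H2-Aa -0.95 and that of H2-DMb1 -0.44, short of 2-fold. The 4 cells of mdx with under 20 macrophage UMIs held 1116 of its 2759 Cd74 UMIs and 503 of its 1149 H2-Aa UMIs. Without them and the 1 such cell of D2-mdx, the ratios were -0.70 for Cd74 (-0.80 to -0.61), -0.57 for H2-Aa, -0.66 for H2-Ab1 and -0.92 for H2-Eb1, all short of 2-fold, and -1.64 for H2-DMb1. Of the class I genes, which all nucleated cells carry, 0 of 4 compared were 2-fold apart in cluster 0 and 1 of 4 was lower in cluster 1.

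Class II genes are switched on together by the coactivator Ciita through a shared set of promoter boxes, of which the Y box is bound by NF-Y. The RefSeq promoters (GRCm38.p6, 250 bases before to 50 after the gene start) of H2-Aa and H2-Eb1 are shown because both genes had lower levels in D2-mdx in clusters 0 and 1. Capitals mark the letters CTGATTGG, a Y box searched on both strands. H2-Aa lies on the minus strand at chr17:34287774-34288073 and H2-Eb1 on the plus strand at chr17:34305617-34305916.
H2-Aa: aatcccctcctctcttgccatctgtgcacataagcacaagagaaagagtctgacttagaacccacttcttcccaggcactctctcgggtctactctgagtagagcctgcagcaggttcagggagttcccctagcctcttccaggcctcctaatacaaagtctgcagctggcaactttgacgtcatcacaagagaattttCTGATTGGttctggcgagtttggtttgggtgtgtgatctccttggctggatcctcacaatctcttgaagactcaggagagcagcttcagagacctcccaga
H2-Eb1: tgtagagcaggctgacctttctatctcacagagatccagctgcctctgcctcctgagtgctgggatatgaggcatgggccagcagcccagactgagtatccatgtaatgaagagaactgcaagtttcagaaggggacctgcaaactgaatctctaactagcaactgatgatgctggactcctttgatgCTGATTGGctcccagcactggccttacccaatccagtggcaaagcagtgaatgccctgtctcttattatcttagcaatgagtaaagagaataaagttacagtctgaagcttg

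The letters start 51 bases before the start of H2-Aa and 62 bases before that of H2-Eb1. They occur in 1346 of 32851 promoters of the table (4.10%). The entries of H2-DMa, H2-DMb1 and H2-DMb2 do not hold them, and Cd74, H2-Ab1 and Ciita were not matched. The match is a description of these letters and not of binding.

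Complement genes were mixed in cluster 0. Of 7 compared, 1 was 2-fold or more higher in D2-mdx and 3 were lower: C1qb (chromosome 4, 136880129 to 136886187, minus strand), with 3415 CPM in mdx and 1573 CPM in D2-mdx (-1.12), the anaphylatoxin receptor C5ar1 at -1.92 and properdin, Cfp, at -1.20. Thinned to 2000 UMIs per cell, C1qb was at -0.92 and Cfp at -0.28, and C1qb was at -0.99 as a mean over cells and Cfp at -0.93 without the top cells, all short of 2-fold. Lyz2 (chromosome 10, 117277331 to 117282321, minus strand) had 11694 and 22088 CPM (0.92, 0.86 to 0.98), just under 2-fold. Trem2, a lipid receptor of phagocytes, had a ratio of 0.82. The 10 lysosomal genes were all compared and 0 were 2-fold apart, with a median of -0.10.

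Of the genes with UMIs in both libraries, the lowest ratio was that of Gpnmb (chromosome 6, 49036546 to 49070929, plus strand), with 2261 CPM in mdx and 75.1 CPM in D2-mdx (-4.91, -5.48 to -4.39). It had a UMI in 13 of 24 cells of mdx and 10 of 40 of D2-mdx, and 30.6% of its mdx UMIs were in 1 cell. Without the top cell of each library the ratio was -5.00. In myogenic cells Gpnmb had 2.99 CPM in B10, 1.47 in DBA, 7.65 in mdx and 2.21 in D2-mdx, too low to read. Il1b (-3.57), the growth factor Gdf15 (-3.23) and the lectin genes Mgl2 and Cd209a were also among the 10 lowest. Of the Il1b UMIs of mdx, 61.7% were in 1 cell, and its ratio was -0.08 with clusters 0, 1, 5 and 6 pooled. Gdf15 had 31 UMIs in mdx and 5 in D2-mdx, the latter all in 1 cell. Mgl2 and Cd209a had 55 and 35 UMIs in mdx and 0 in D2-mdx, ratios of at most -4.80 and -4.15 against a floor of 3 counts over the cluster, and all 35 Cd209a UMIs were in the 2 cells of mdx with under 20 macrophage UMIs that held 24 and 11. Without such cells Cd209a was at 0 in both libraries. Either may lie below Gpnmb. Mgl2 also differed in myogenic cells, at 44.6 CPM in mdx and 0.042 CPM in D2-mdx.

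Several of the most different genes differed as much in myogenic cells. Gm10709, at 0 CPM in mdx and 654 CPM in D2-mdx in cluster 0, had 3.23 CPM in myogenic cells of B10 and 1.69 in those of mdx, against 1239 in DBA and 1013 in D2-mdx. Gm8730 had 57.4, 104, 1358 and 1601 CPM in the same cells and order. Rpl29, a ribosomal protein gene with a ratio of -3.40 in cluster 0, had 1549.8 CPM in B10 and 1978 in mdx, against 195 in DBA and 132 in D2-mdx. These genes separated the backgrounds and not the dystrophic from the wildtype mice. Reads of all strains were counted on the C57BL/6 genome, and Gm10709, Gm8730 and Gm10260 are predicted genes that can share reads with near-identical copies, so their values are uncertain. The part of the alignment in these differences was not tested. Without the genes 2-fold apart the same way in myogenic cells, cluster 0 kept 40 higher genes (2.57%) and 67 lower genes (4.3%).

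Cluster 1 differed more between the libraries. Of 1773 genes compared, 141 were 2-fold or more higher in D2-mdx (7.95%) and 217 lower (12.2%). With a minimum of 50 CPM the balance turned, to 324 higher and 255 lower. Its cells were also deeper in D2-mdx, with a median of 12814 UMIs against 6129 in mdx, and the part of depth was not tested beyond thinning. Spp1 (chromosome 5, 104435118 to 104441050, plus strand) had 508 CPM in mdx and 22559 CPM in D2-mdx (5.47, 5.14 to 5.82). It had a UMI in 10 of 22 cells of mdx, with a median of 0 and at most 22 UMIs. In D2-mdx it had one in 29 of 34 cells, with a median of 55 and up to 1781 UMIs. The cells of the libraries thus overlapped at the low end only.

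Spp1 was not set by cluster 1 alone. Over all white blood cells it had 684 CPM in mdx and 8973 CPM in D2-mdx, and 0 UMIs in the 1 cell of B10 and the 9 of DBA. In cluster 0 it had 1419 against 3707 CPM (1.39), but 52.0% of the D2-mdx UMIs were in 1 cell, and the ratio was 0.90 without the top cell of each library. With each cell thinned to 2000 UMIs, 20.9% of white blood cells in mdx and 47.3% in D2-mdx had an Spp1 UMI. Myogenic cells, which share the free RNA of the droplets, had one in 1.84% and 7.48%, and their Spp1 level was 26.4 CPM in mdx and 64.5 CPM in D2-mdx, a log2 ratio of 1.29. This ratio was close to that of cluster 0 and below that of cluster 1. Lyz2 in myogenic cells was likewise at 22.0 CPM in mdx and 78.9 CPM in D2-mdx. The part of free RNA in the white blood cell values was not tested.

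Of the 12 repair macrophage genes, 10 were compared in cluster 1, of which 5 were 2-fold or more higher in D2-mdx and 2 lower, Gdf15 (-4.27) and Gpnmb (-1.10). Gdf15 had 34 UMIs in mdx and 6 in D2-mdx, with 79.4% and 83.3% of them in 1 cell. Gpnmb was at -0.65 as a mean over cells and at -0.63 with thinning, short of 2-fold. Several genes, some on that list and some named after their values were seen, had higher levels in D2-mdx. Lpl, which splits triglycerides, had 231 CPM in mdx and 1524 CPM in D2-mdx (2.72), and Cd9, a tetraspanin, 190 and 1410.0 CPM (2.89). Lpl, however, was also higher in myogenic cells, at 62.7 CPM in mdx and 434 CPM in D2-mdx. The galectin Lgals3 had 2556 and 5702 CPM (1.16), Trem2 had a ratio of 1.38 and the lysosomal protease Ctsl of 2.75. With clusters 0, 1, 5 and 6 pooled, Lpl was at 0.54, Lgals3 at 0.61 and Trem2 at 0.93, short of 2-fold. Ctsk had 1 UMI in mdx and 175 in D2-mdx (5.69, 3.19 to 11.0) with 48.0% of these in 1 cell. Without the top cells it was at 0 in mdx, a ratio of at least 3.18 against the floor. Mmp12, macrophage elastase, was at 0 UMIs in mdx and at 407 in D2-mdx, a ratio of at least 5.32 that rested on 6 of 34 cells. Of the 8 monocyte genes 6 were compared, of which Fn1 was higher at 1.67 and the other 5 were 2-fold or more lower, with a median of -1.51.

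Class II genes were lower in cluster 1 as well, in 4 of 5 compared, with a median of -2.09 where that of all compared genes was -0.06. Cd74 had 3627 CPM in mdx and 977 CPM in D2-mdx (-1.89, -2.07 to -1.71), and H2-Eb1 had a ratio of -2.38. In D2-mdx 50.7% of the Cd74 UMIs and 78.7% of the H2-Eb1 UMIs were in 1 cell. C1qb was lower at -2.36.

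Interferon-response genes were lower too, all 7 of the 7 compared, with a median of -2.55. Isg15, a ubiquitin-like modifier of antiviral defence, had 346 CPM in mdx and 59.9 CPM in D2-mdx (-2.53, -3.23 to -1.85). The transcription factor Irf7 had a ratio of -2.55, Ifi204 of -3.20, Ifit2 of -3.16 and the antiviral enzyme Rsad2 of -2.71. Pooled over clusters 0, 1, 5 and 6, Rsad2 was at -0.96 and Ifit3 at -0.90, short of 2-fold. Isg15 had a UMI in 11 of 22 cells of mdx and 11 of 34 of D2-mdx, with medians of 0.5 and 0 UMIs, so the libraries overlapped. Irf7 had one in 9 of 22 and 10 of 34 cells, with up to 21 UMIs in a cell of mdx. Chemokine genes were lower in 7 of 11 compared, among them the monocyte attractants Ccl2 (-1.60) and Ccl12 (-3.65) and Ccl4 (-2.34). With clusters 0, 1, 5 and 6 pooled, 3 of 11 were lower and 1 higher, and the ratio of Ccl2 was 0.048. Heat shock genes, which rise with tissue dissociation, were lower in 3 of 4, with Hspa1b at -2.85. In myogenic cells Hspa1b had 2080.4 CPM in mdx and 1281 CPM in D2-mdx. Gm42418 was also lower in cluster 1, with 13383 CPM in mdx and 1384 CPM in D2-mdx (-3.27). So were 1 of 2 myogenic genes compared and the 1 pericyte gene compared (-1.85). The part of these genes and of the heat shock genes in the other differences was not tested.

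**Figure D5:**
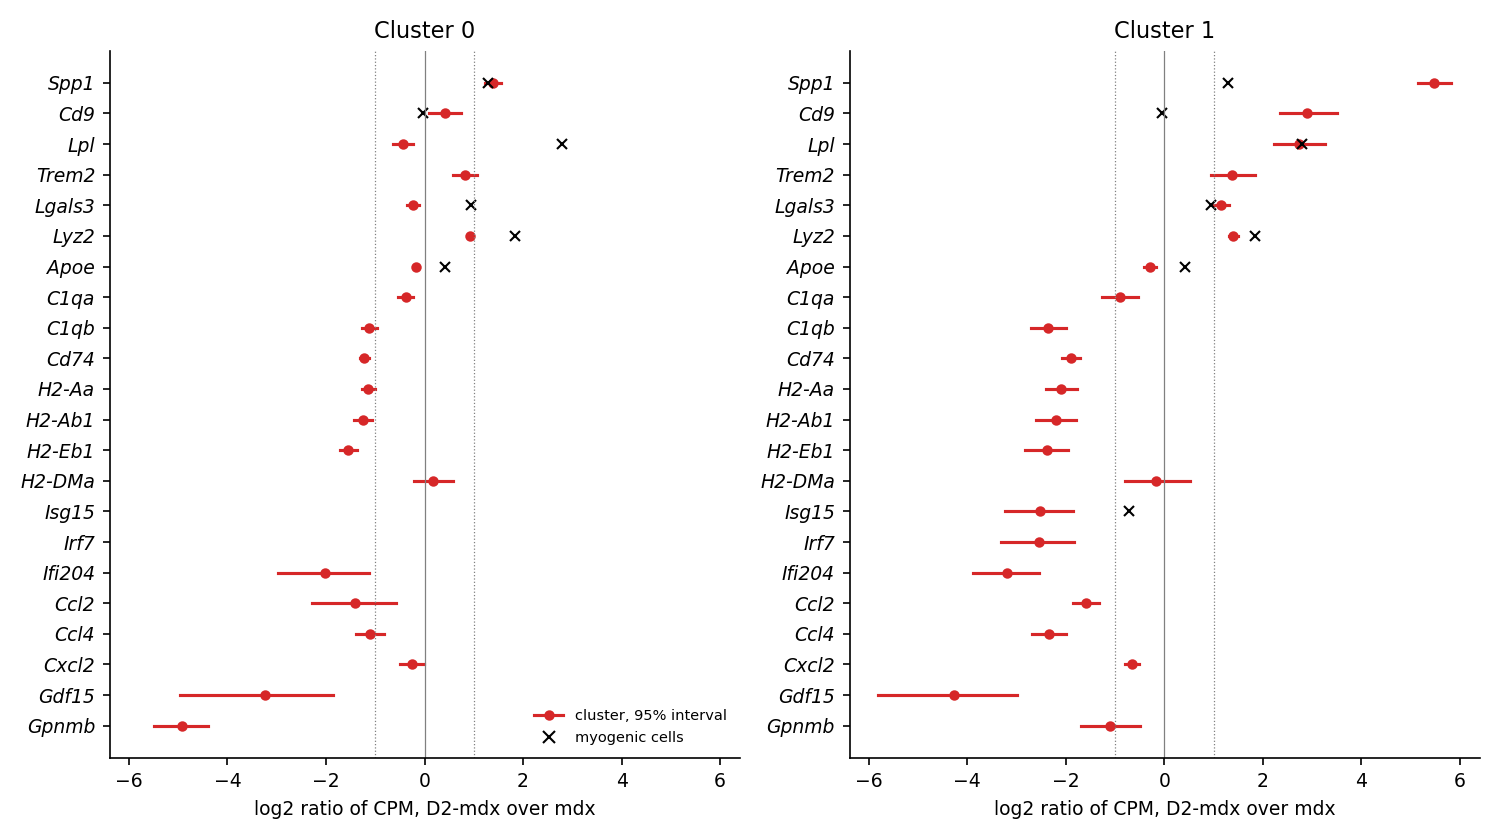
Log2 ratio of CPM, D2-mdx over mdx, of named genes in cluster 0 (left) and cluster 1 (right), with 95% intervals from counting error; crosses give the ratio in myogenic cells where both libraries had at least 10 CPM, and dotted lines a 2-fold difference. Cd74, H2-Aa, H2-Ab1 and H2-Eb1 lay beyond the lower line in both clusters, and Spp1 lay far higher in cluster 1 than in cluster 0.

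Since cells could fall into different clusters by these same genes, the macrophage-like and monocyte-like clusters 0, 1, 5 and 6 were also pooled, with 58 cells of mdx and 93 of D2-mdx. Of 1643 genes compared, 64 were 2-fold or more higher in D2-mdx (3.9%) and 97 lower (5.9%), with a median of 0.02. Spp1 had 891 CPM in mdx and 12697 CPM in D2-mdx (3.83, 3.70 to 3.97). Cd74 had 7315 and 2378 CPM (-1.62, -1.69 to -1.55), and again 5 of 6 class II genes compared were lower, H2-DMa being the exception at -0.13. Without the cells under 20 macrophage UMIs (5 of mdx and 1 of D2-mdx), Cd74 was at -1.24 and H2-Aa at -1.25, still past 2-fold.

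Complement genes were lower in 5 of 7 compared, with C1qb at -1.86, and so were 4 of 5 resident macrophage genes, with Mrc1 at -1.41. Of the 12 repair macrophage genes 3 were higher and 3 lower. Ccl8 of cluster 5 was lower at -2.95 and Gpnmb at -3.81. Of the genes of cluster 6, the chemokine Ccl24 was higher at 1.84. Of these 16 monocyte-like cells 14 were of D2-mdx, and of the 16 cells of cluster 5 10 were of mdx, so this comparison mixes level and makeup. Interferon-response genes were lower in 2 of only 3 compared.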

How the data were processed

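The authors made the count files with Cell Ranger 3.0.1 on the mouse build mm10, per the submitters' processing notes: whole-number UMI counts of 27998 features per barcode from 10X Chromium 3′ libraries, deposited without normalization. The members and gene lists used here were chosen with earlier results of these data known. All 4 libraries, 1 per strain, were read, and barcodes passed with 1000 to 5000 genes and no more than 8% of UMIs from mitochondrial genes, as in the study's own filter. White blood cells followed the rule given in the report. Doublets were predicted by simulating pairs of cells (highest scores, a share of 0.008 per 1000 cells) and were kept. White blood cells were clustered alone with scanpy 1.11.5 (1000 variable genes, 15 dimensions, 10 neighbours, Leiden resolution 0.5), without integration, and named only from marker lists, with at least 3 detected markers. Of 294 listed symbols, 7 were not matched. Levels are summed UMIs per 1000000 with exact Poisson intervals, shares have Clopper-Pearson intervals, and log2 ratios have intervals from the exact binomial share of both counts (scipy 1.17.1). With 1 library per group no test was made and no p-value is given. Ratios took genes with at least 100 CPM in one library and 30 UMIs over both, in clusters with at least 20 cells in each. A gene at 0 was set to 3 counts over the cells compared. Genes were named by rule: the 10 highest and 10 lowest ratios, up to 6 genes a list by level, and the 10 leading genes of each cluster (a UMI in at least 25% of cells, ranked by fold with a pseudocount of 0.5 UMIs). Some genes that the rule names are not reported here. Some further list members and cells were named after their values were seen. The ratio code was tested on simulated data. Gene coordinates are from GENCODE on the same build. Alternatives are in the closing section.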

Additional observations from a re-analysis of the deposited data

Results flagged for a closer look

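Barcodes with 3 or more of the 6 leukocyte genes also lay outside the cells described. Among barcodes over 5000 genes they were 0 of 41 in B10, 10 of 214 in mdx (4.67%), 21 of 129 in DBA (16.3%) and 47 of 502 in D2-mdx (9.36%). The mdx share was above that of its wildtype library, whereas the D2-mdx share was not.

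Among cells with 2 or more Pax7 UMIs, which the choice of white blood cells left out, 3 or more leukocyte genes had a UMI in 0.0447% of B10 (2 cells) and 0.942% of mdx (36 cells), and in 0.548% of DBA (15 cells) and 1.53% of D2-mdx (50 cells). Both dystrophic libraries lay above the wildtype library of their background. Differences between the libraries were not tested.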

How the results depend on the processing

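No paired analysis was possible because each strain had 1 library, and no result rests on a test. The share of white blood cells in B10 was 0 with at most 5% mitochondrial UMIs, and that of D2-mdx was 2.91% with at least 2 of the 6 genes. Counting only clusters 0, 1 and 4 to 7, a setting added after seeing the data, gave 0 in B10, 0.0297% in DBA and 1.74% in D2-mdx. This setting left out clusters 2 and 3 but kept cluster 5, where 5 of 16 cells held 10 or more myogenic UMIs. Cluster sizes depended on the settings. At resolution 0.3, 1.0, 30 dimensions and 2000 features, 210, 224, 189 and 198 of the 249 cells kept their cluster. Of the mdx cells, cluster 0 held 42.9% and cluster 1 15.4% with 30 dimensions, cluster 1 held 42.9% with 2000 features, and cluster 2 held 23.1% at resolution 0.3. Cluster 3 held 1.18% of mdx cells without predicted doublets and 0 by marker UMIs, and by marker UMIs cells with class II or C1qb genes, B cell-like ones included, were 75.8% of mdx and neutrophils 4.73% of D2-mdx. Cluster 1 held 31.1% of D2-mdx cells at resolution 0.3 and with 30 dimensions, and 36.5% with 2000 features. In mdx and D2-mdx alike, cluster 5 was at 0 with 30 dimensions and 2000 features, cluster 6 at 0 under these and at resolution 0.3, and cluster 7 at 0 at resolution 0.3. In cluster 0, 24 genes were higher and 24 lower in D2-mdx with cells thinned to 2000 UMIs, and 148 and 141 with a minimum of 50 CPM, where the excess of lower genes turned. In cluster 1, 44 were higher and 50 lower with thinning, and 324 were higher and 255 lower with 50 CPM, so that the higher genes then outnumbered the lower ones. Fewer genes pass the minimum after thinning and more pass at 50 CPM. With clusters 0, 1, 5 and 6 together, also added after seeing the data, the log2 ratio of Ccl2 turned to 0.048 (in place of both clusters) and that of Ccl3 to 0.049. In cluster 0, thinning took Cd74 to -0.90, H2-Aa to -0.95, C1qb to -0.92 and H2-DMb1 to -0.44, short of 2-fold. Leaving out cells under 20 macrophage UMIs, added after seeing the data, took Cd74 to -0.70, H2-Aa to -0.57, H2-Ab1 to -0.66, H2-Eb1 to -0.92 and Ccl4 to -0.11 in cluster 0, and no count of genes changed by over 1.5 times. The cause of the other shifts was not tested. Of all values for single genes, those above included, 634 were the same, 63 moved, 27 fell short of 2-fold, 11 passed it and 3 changed direction. Depth limits DBA and B10, whose 9 cells and 1 cell leave most genes at 0.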
